A study of Mus musculus with 4 samples.

Results

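The 10 genes described here belong to the bone morphogenetic protein (BMP) pathway: the ligand genes Bmp2, Bmp4 and Bmp7, the receptor genes Bmpr1a and Bmpr1b, the inhibitor genes Bambi and Smad6, and the target genes Id1, Id2 and Id3. They were taken by gene name from the table of raw read counts, where each name had 1 row among 54532 genes. Poly(A) RNA was sequenced from Dll1-mCherry-positive cells of MMTV-PyMT mammary tumors in C57BL/6 mice, where the MMTV mammary promoter drives the polyoma middle T oncogene. The irradiated group (n = 2 libraries) came from tumors given targeted radiation at day 30, and the unirradiated group (n = 2) from tumors left without it. In both groups the tumors grew from injected Dll1-reporter tumor cells (the labels give the site as MFP), tumor cells were enriched with antibodies against CD45, CD31 and TER119, and mCherry-positive cells were sorted from these. Whether the libraries within a group stem from different mice is not stated in the labels. The p-values therefore describe library-to-library spread, part of which may be technical.

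BMP ligands are secreted proteins of the TGF-beta family. They bind type I receptors such as those encoded by Bmpr1a and Bmpr1b together with type II receptors, and the receptors phosphorylate Smad1, Smad5 and Smad9, which enter the nucleus with Smad4. Id genes are among the most direct targets of these Smads. Id proteins have a helix-loop-helix domain but no DNA-binding region, and they hold E proteins, a class of transcription factors, away from DNA. In the mouse mammary gland Id2 is needed for the lobules that make milk. Smad6 and Bambi act back on the pathway, Smad6 inside the cell and Bambi as a receptor-like membrane protein without kinase activity.

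The summed counts were 19931303 and 18903631 in irradiated 1 and irradiated 2, against 20817997 and 16811888 in unirradiated 1 and unirradiated 2. Irradiated libraries differed from each other far more than unirradiated ones: the biological coefficient of variation across genes was 39.4% in the irradiated pair and 5.93% in the unirradiated pair. Irradiated 2 also carried more transcripts of non-epithelial cells. Levels are given as CPM, reads scaled to a common library size. The level of Dll1, the gene reported by mCherry, was 146 and 80.2 CPM in irradiated 1 and 2, against 130 and 129 CPM in unirradiated 1 and 2.

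The Id genes are paralogs, and the stretch below, from the helix-loop-helix region of their coding sequences in GENCODE M21, is shown because it holds the longest run of letters that all 3 share. The run is 10 bases long and is printed in capitals.

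Id1: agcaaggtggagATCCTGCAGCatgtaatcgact
Id2: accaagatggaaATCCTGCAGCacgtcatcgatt
Id3: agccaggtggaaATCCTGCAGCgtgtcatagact

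The longest run shared by any pair of these coding sequences was 15 bases, between Id2 and Id3. No stretch of 50 bases in the Id1 or Id3 transcripts occurred in a transcript of another gene, and 0.329% of such stretches in Id2 occurred in Gm6175, which had 0 counts in each library.

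None of the 9 genes that could be tested passed the test between irradiated and unirradiated libraries. Id3 had the largest fitted log2 fold change of the 9 tested genes and lay above in both irradiated libraries, as did Bmp2, Smad6 and Id1. Bmpr1a lay below in both. In irradiated 1 alone the fitted log2 fold change of Bmp2 (0.48) was as large as that of Id3 (0.45). Bmp4, Bmp7, Bambi and Id2 overlapped between the groups, and Bmpr1b was near the limit of detection. Counts were tested with edgeR's quasi-likelihood test on the whole table, with p-values adjusted by Benjamini-Hochberg over the 15993 genes that passed the filter on low counts. Of the 10 genes 9 passed this filter, Bmpr1b being the exception. The test called 0 of these 9, as it called 0% of all tested genes in either direction, and at an unadjusted p under 0.05 it held 1 of the 9 (Id3) against 9.25% of all tested genes. DESeq2 called 1 of 9 (Id3) higher, against 2.74% of the genes it tested, and limma-voom called 0. Without the filter on low counts edgeR also called Id3 higher, against 4.86% of genes, and with the replicate number as a block it called 0 of the 9 higher, against 0.0125%. Both irradiated libraries were above both unirradiated ones in 4 of the 9 tested genes and below in 1, against 20.3% and 20.0% of all tested genes. The median log2 fold change was 0.18 over the 9 genes and 0.00396 over all tested genes.

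**Figure D1:**
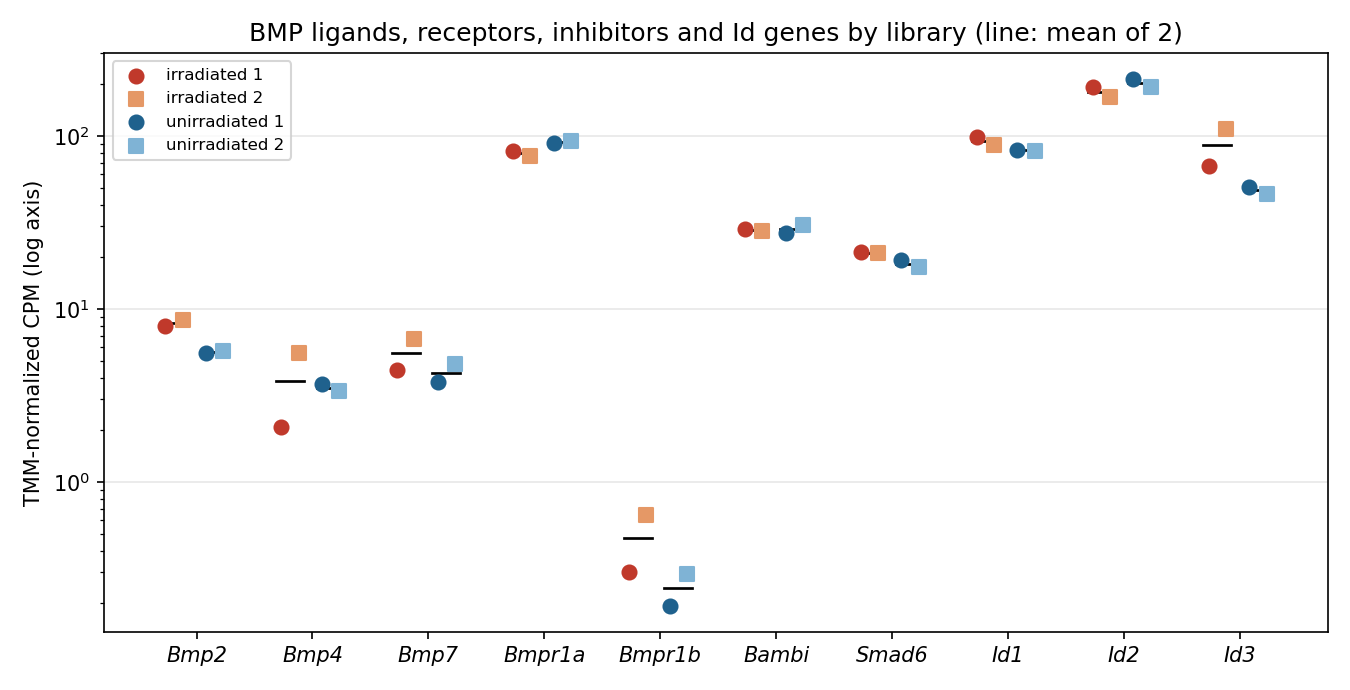
TMM-normalized CPM (log axis) of the 10 genes in irradiated 1, irradiated 2, unirradiated 1 and unirradiated 2, with a line at the mean of each group (n = 2). Id3 is at 66.8 and 110 CPM in the irradiated libraries, above 50.8 and 46.4 CPM in the unirradiated ones, and the 2 irradiated points of Bmp4 lie on either side of the unirradiated ones.

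Id transcripts were the most abundant of the set. Per kilobase of the gene length in the deposited table, the mean level of Id1 was 80.6 CPM per kb in irradiated and 71.1 CPM per kb in unirradiated libraries. Id2 was at 73.7 CPM per kb in irradiated and 82.6 CPM per kb in unirradiated libraries, and Id3 at 49.4 CPM per kb in irradiated and 27.1 CPM per kb in unirradiated libraries. In the unirradiated libraries these levels were at the 96.4th, 97.0th and 88.9th percentile of all tested genes. Bmpr1a followed at 12.5 CPM per kb in irradiated and 14.5 CPM per kb in unirradiated libraries. Bambi averaged 5.69 CPM per kb in irradiated and 5.75 CPM per kb in unirradiated libraries, and Smad6 averaged 6.57 CPM per kb in irradiated and 5.69 CPM per kb in unirradiated libraries. The values of Bambi and Smad6 overlapped in the unirradiated libraries. The ligands were low: in irradiated libraries Bmp2 averaged 2.33, Bmp4 1.69 and Bmp7 1.38 CPM per kb, and in unirradiated libraries Bmp2 averaged 1.58, Bmp4 1.56 and Bmp7 1.06 CPM per kb. Bmp2 and Bmp4 overlapped in the unirradiated libraries. Bmpr1b was lowest, at 0.079 CPM per kb in irradiated and 0.0409 CPM per kb in unirradiated libraries.

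Bmp2, a ligand with high affinity for the Bmpr1a receptor, was at 7.92 and 8.64 CPM in irradiated 1 and 2, against 5.53 and 5.72 CPM in unirradiated 1 and 2. The groups did not overlap, and both irradiated values were alike. The log2 fold change was 0.56 (SE 0.25, 95% interval -0.0836 to 1.20), and edgeR's quasi-likelihood test gave an adjusted p of 0.584. These CPM rest on 157 and 162 reads in the irradiated libraries and 115 and 97 reads in the unirradiated ones.

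Bmp4, a close relative of Bmp2 that many mesenchymal cells make, differed between the irradiated libraries more than any other tested gene of the set. It was at 2.07 and 5.54 CPM there, against 3.66 and 3.36 CPM in the unirradiated libraries. Irradiated 1 was the lowest of the 4 libraries and irradiated 2 the highest, a log2 difference of 1.38 between them, and 15.4% of all tested genes differed over 2-fold between these libraries. The log2 fold change of 0.12 (SE 0.54, adjusted p = 0.971, edgeR) therefore averages values of opposite sign, and it was -0.78 for irradiated 1 alone against the unirradiated pair and 0.64 for irradiated 2 alone.

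Bmp7, a ligand that also acts through the activin type I receptor encoded by Acvr1, was at 4.44 and 6.66 CPM in irradiated 1 and 2, against 3.75 and 4.78 CPM in unirradiated 1 and 2. Irradiated 1 lay between the unirradiated values and irradiated 2 was above them. Its log2 fold change was 0.38 (SE 0.36, adjusted p = 0.826, edgeR). It was 0.0531 without irradiated 2, 0.64 without irradiated 1 and 0.21 without unirradiated 1.

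Bmpr1a, which encodes the widely expressed type I receptor of the family, was the main receptor of the set. It was at 81.3 and 77.0 CPM in irradiated 1 and 2, against 90.7 and 93.6 CPM in unirradiated 1 and 2, with no overlap. It was the only gene of the set below in both irradiated libraries, and its log2 fold change was -0.22 (SE 0.0994, 95% interval -0.47 to 0.036, adjusted p = 0.589, edgeR). Its exons share 4.57% of their bases with the antisense gene Gm17110, which had 51 and 24 counts in the irradiated libraries and 32 and 25 in the unirradiated ones. Strand was not kept by the kit, and reads from the shared bases cannot be assigned to either gene.

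Bmpr1b, the other type I receptor gene of the set, had 6 and 12 reads in the irradiated libraries, against 4 and 5 in the unirradiated ones. The exact 95% Poisson intervals, which cover counting error only, ran from 2.20 to 13.1 and from 6.20 to 20.96 reads in irradiated 1 and 2, and from 1.09 to 10.2 and from 1.62 to 11.7 reads in unirradiated 1 and 2. All 4 intervals overlap, but such an overlap is not a test between the groups. In CPM both irradiated values were above both unirradiated ones, at 0.303 and 0.64 CPM, against 0.192 and 0.295 CPM. Bmpr1b did not pass the filter, so the main fit gave no test of it.

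Bambi had nearly the same level in the groups, at 29.1 and 28.3 CPM in the irradiated libraries and 27.4 and 30.6 CPM in the unirradiated ones. Both irradiated values lay between the unirradiated ones. The log2 fold change was -0.0139 with a 95% interval from -0.36 to 0.33 (adjusted p = 0.987, edgeR).

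Smad6 was at 21.2 and 20.9 CPM in irradiated 1 and 2, against 19.1 and 17.3 CPM in unirradiated 1 and 2. Both irradiated values were above and close together, while the unirradiated values were further apart. Its log2 fold change was 0.21 (SE 0.15, 95% interval -0.18 to 0.59, adjusted p = 0.756, edgeR). Without unirradiated 2 it was 0.126.

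Id1 was at 97.9 and 89.0 CPM in irradiated 1 and 2, against 83.2 and 81.9 CPM in unirradiated 1 and 2. The groups did not overlap, and irradiated 1 was the highest. The fitted log2 fold change was 0.18 (SE 0.105, 95% interval -0.0897 to 0.45, adjusted p = 0.676, edgeR). Without irradiated 1 it was 0.0948.

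Id2 was at 192 and 167 CPM in irradiated 1 and 2, against 212 and 190 CPM in unirradiated 1 and 2. Irradiated 1 and unirradiated 2 were at nearly the same level, and irradiated 2 was the lowest. With scaling by library size alone both irradiated values lay below. Its log2 fold change was -0.16 (SE 0.13, 95% interval -0.50 to 0.17, adjusted p = 0.783, edgeR). It was -0.0819 without irradiated 2, -0.0911 without unirradiated 1, -0.28 without irradiated 1 and -0.25 without unirradiated 2.

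Id3 was at 66.8 and 110 CPM in irradiated 1 and 2, against 50.8 and 46.4 CPM in unirradiated 1 and 2. Every irradiated value was above every unirradiated one, and irradiated 2 was the highest by a wide margin. The group means were 88.5 ± 30.7 CPM in irradiated and 48.6 ± 3.12 CPM in unirradiated libraries (SD, n = 2 each). The log2 fold change was 0.87 (SE 0.25, 95% interval 0.22 to 1.51), the unadjusted p was 0.0186 and the adjusted p 0.491 by edgeR's quasi-likelihood test. DESeq2 gave an adjusted p of 0.0427 and limma-voom 0.789.

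**Figure D2:**
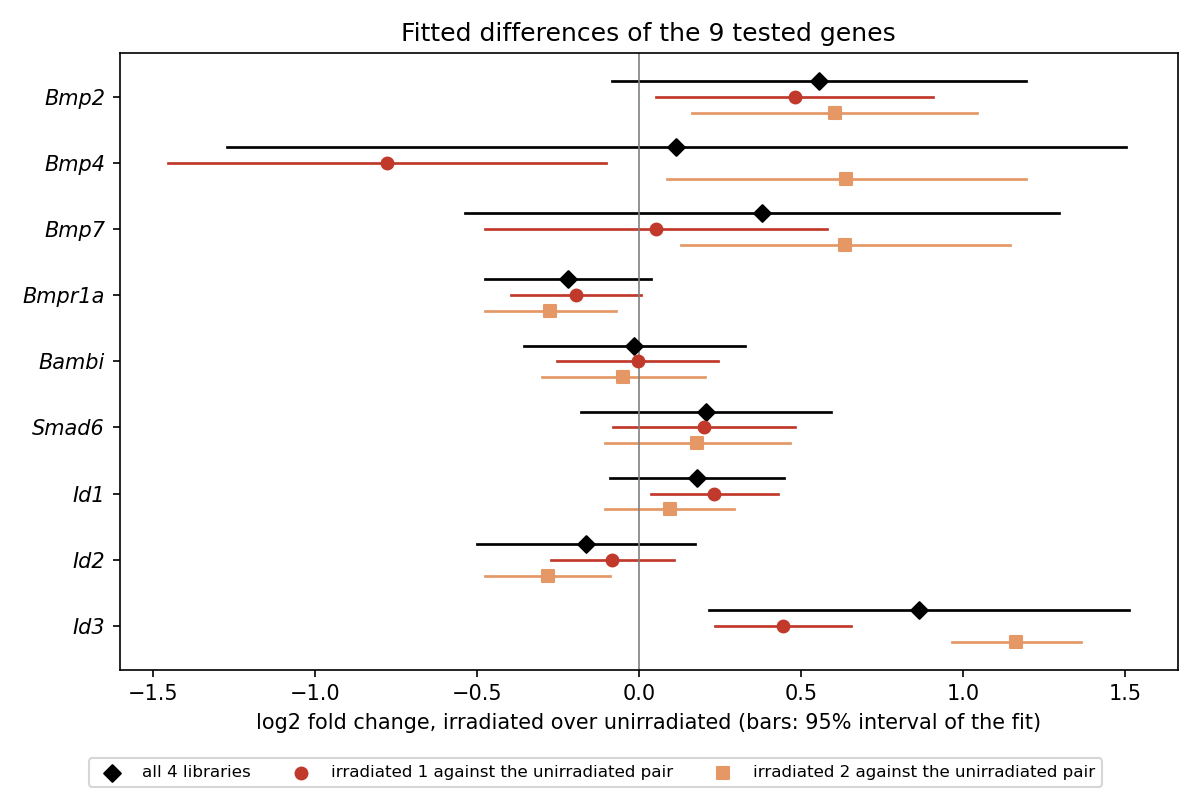
Log2 fold change of the 9 tested genes, irradiated over unirradiated, with the 95% interval of the edgeR fit as bars, for all 4 libraries and for each irradiated library against the unirradiated pair. Id3 lies above 0 in each fit (0.87, 0.45 and 1.17), Bmpr1a lies below 0 in each (-0.22, -0.19 and -0.27), and Bmp4 changes sign between irradiated 1 (-0.78) and irradiated 2 (0.64).

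Set against the unirradiated pair alone, Id3 was called higher for each irradiated library, with a log2 fold change of 0.45 for irradiated 1 (edgeR adjusted p = 0.000466) and 1.17 for irradiated 2 (adjusted p = 6.4e-29). Bmp2 was called higher for irradiated 2 only, at 0.60 (adjusted p = 0.0331), and Bmpr1a and Id2 were called lower for it, at -0.27 (adjusted p = 0.0354) and -0.28 (adjusted p = 0.0204). For irradiated 1 the corresponding values were 0.48, -0.19 and -0.0819, with adjusted p of 0.0882, 0.148 and 0.572. These fits assume that the lone irradiated library varies like the unirradiated pair. Of all tested genes they called 11.9% higher and 13.9% lower for irradiated 1, and 15.9% higher and 7.95% lower for irradiated 2.

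The proportions of the Id transcripts also differed between libraries. These ratios were formed after the values had been seen and were not tested. Id1 was at 0.509 and 0.532 of the Id2 CPM in irradiated 1 and 2, against 0.392 and 0.43 in the unirradiated ones, and Id3 was at 0.348 and 0.658 of the Id2 CPM, against 0.239 and 0.243. Both ratios were higher in each irradiated library than in each unirradiated one. Per kilobase, Id1 was above Id2 in both irradiated libraries (84.4 and 76.7 CPM per kb for Id1, 78.8 and 68.7 CPM per kb for Id2). In both unirradiated libraries Id1 was below Id2 (71.7 and 70.6 CPM per kb for Id1, 87.1 and 78.1 CPM per kb for Id2). The order per kilobase depends on the deposited gene lengths, 1160 bases for Id1 and 2438 bases for Id2. In CPM Id1 was below Id2 in each library. Id3 made up 18.3% and 29.4% of the summed CPM per kb of Id1 to Id4 in the irradiated libraries, against 14.9% and 14.6% in the unirradiated ones. Id4 was at 1.12% to 1.46% in the irradiated and 1.27% to 1.40% in the unirradiated libraries.

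**Figure D3:**
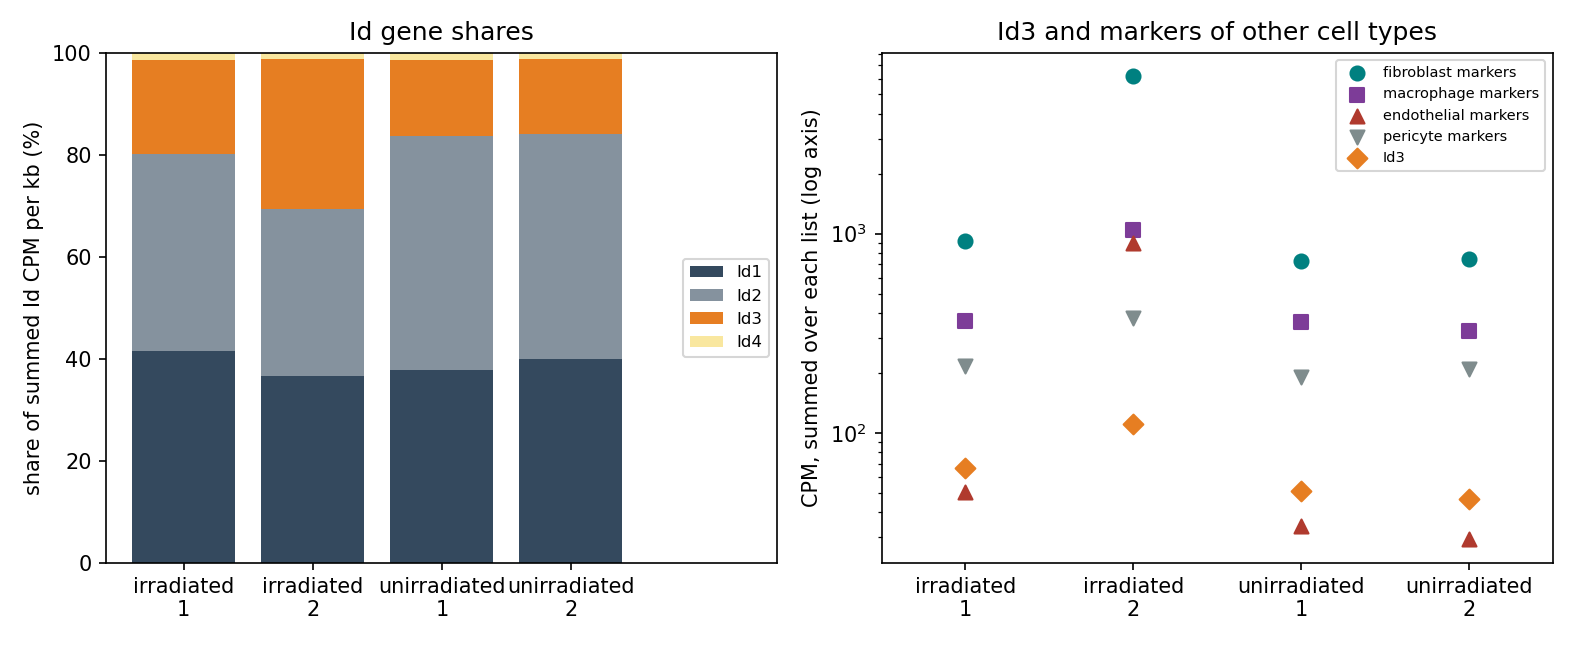
Left, share (%) of Id1, Id2, Id3 and Id4 in their summed CPM per kb in each library. Id3 holds 18.3% and 29.4% in the irradiated libraries and 14.9% and 14.6% in the unirradiated ones. Right, CPM (log axis) of Id3 and summed CPM of marker lists of 4 other cell types. All 5 are highest in irradiated 2, where the endothelial sum is 897 CPM.

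Id3 and the marker sums of non-epithelial cell types were highest in irradiated 2. Id1 was lower in irradiated 2 (89.0 CPM) than in irradiated 1 (97.9 CPM). Endothelial cells are known to express Id1 and Id3, and the part of endothelial RNA in the level of either gene was not tested. Endothelial markers summed to 50.5 and 897 CPM in irradiated 1 and 2, against 34.02 and 29.1 CPM in unirradiated 1 and 2, and 7 of 10 were above in both irradiated libraries, as were 20.3% of all tested genes. Among them Plvap was at 12.8 and 242 CPM in irradiated 1 and 2, against 8.18 and 8.49 CPM in unirradiated 1 and 2. Pecam1 was at 9.48 and 158 CPM, against 6.98 and 4.95 CPM. Fibroblast markers summed to 915 and 6169 CPM in irradiated 1 and 2, against 728 and 742 CPM in unirradiated 1 and 2, with 6 of 10 above. Their most abundant genes were Col3a1, with 271 and 2224 CPM against 194 and 204 CPM, then Col1a1, with 261 and 1766 CPM against 174 and 183 CPM. Pecam1 encodes CD31, and Ptprc, in the macrophage list, encodes CD45; antibodies against both were used in the sort. In bulk RNA a change in the number of such cells and a change in RNA per cell cannot be told apart.

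Irradiated 2 was highest in the other non-epithelial lists too. The counts of markers above in both irradiated libraries stand beside 20.3% of all tested genes. Macrophage markers summed to 365 and 1048 CPM in irradiated 1 and 2, against 358 and 325 CPM, with 9 of 10 above. Cd14 made up most of that sum in every library but irradiated 2. It overlapped at 276 and 325 CPM in irradiated 1 and 2, against 335 and 304 CPM in unirradiated 1 and 2. Lyz2, next in abundance, was higher in each irradiated library, at 17.4 and 185 CPM, against 3.71 and 3.60 CPM. Pericyte markers summed to 216 and 376 CPM, against 190 and 209 CPM, with 2 of 7 above. Notch3 made up much of this sum and overlapped, at 175 and 151 CPM in irradiated 1 and 2, against 144 and 163 CPM in unirradiated 1 and 2. Rgs5 was at 17.3 and 132 CPM, against 19.97 and 19.5 CPM, high in irradiated 2 alone. Lymphocyte markers summed to 18.5 and 103 CPM, against 5.25 and 4.42 CPM (7 of 10 above), and adipocyte markers to 4.79 and 84.7 CPM, against 4.48 and 6.07 CPM (0 of 6 above). Fabp4 alone was at 81.8 CPM in irradiated 2 and made up nearly all of the adipocyte sum there, while Adipoq was at 0.746 CPM. Red cell markers summed to 5.85 and 35.1 CPM, against 2.02 and 4.36 CPM (3 of 6 above), and skeletal muscle markers to 6.91 and 20.95 CPM, against 4.57 and 3.66 CPM (5 of 7 above). The counts include markers too low for the filter, among them Ncr1, Ckm, Tnnt3 and Myh4. Des counts as above in both the pericyte and the skeletal muscle list. No marker was at 0 in all 4 libraries, and Ncr1, Hba-a2, Tnnt3 and Myh4 were at 0 in both unirradiated ones. Irradiated 1, too, had higher sums than both unirradiated libraries in each of these non-epithelial lists except the adipocyte one. Its lymphocyte sum was 18.5 CPM, against 5.25 and 4.42 CPM, and its endothelial and fibroblast sums were 50.5 and 915 CPM. For irradiated 1 the Id3 log2 fold change was 0.45. The part of these cells in the values of Id3, Bmp4 and Bmp7 was not tested in either irradiated library.

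The epithelial identity of the sorted cells was read from luminal and basal markers. Luminal markers, led by Krt8 and Krt18, summed to 11750 and 9589 CPM in irradiated 1 and 2, against 11454 and 10992 CPM in unirradiated 1 and 2, with 1 of 10 above and 4 below. Basal markers, led by Krt14 and Acta2, summed to 728 and 460 CPM, against 490 and 475 CPM, with 1 of 7 above and 2 below. Of all tested genes 20.3% were above and 20.0% below. The luminal sum exceeded that of any other list in each library.

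The rest of the pathway was described with 48 further genes, of which 34 passed the filter. None of the 34 passed the edgeR test in either direction; at an unadjusted p under 0.05 it held 5, where 9.25% of all tested genes were held. DESeq2 tested 35 of the 48 and called 1 higher (Nbl1), against 2.74% of the genes it tested. Irradiated values exceeded all unirradiated ones in 12 of the 34 and lay under them in 2, beside the 20.3% and 20.0% of all tested genes. The same shares stand beside the counts by role below. The 12 include Bmp8a, which passed the filter through the irradiated libraries alone. The 34 had a median log2 fold change of 0.30; taken singly, the median was 0.0788 for irradiated 1 and 0.24 for irradiated 2.

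Of the other ligand genes 4 of 11 passed the filter, with 2 above, 0 below and a median log2 fold change of 1.74. Most of it came from irradiated 2: relative to the unirradiated mean the median was 0.24 (log2) for irradiated 1 and 2.16 for irradiated 2. Bmp6, a ligand that endothelium also makes, was at 1.21 and 4.80 CPM in irradiated 1 and 2, against 0.722 and 0.59 CPM in unirradiated 1 and 2. Bmp8a was at 0.858 and 1.01 CPM, against 0.481 and 0.118 CPM. Both were above in each irradiated library, and both were under 5 CPM in every library. Bmp8a had 17 and 19 reads in the irradiated libraries and 10 and 2 in the unirradiated ones. It passed the filter through the irradiated libraries alone, so its place above is not a result about this gene. The median of 1.74 rests in part on it. Neither Bmp6 nor Bmp8a passed the edgeR test, with adjusted p of 0.512 and 0.62.

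Of the receptors and co-receptors 8 of 9 passed the filter, with 1 above, 1 below and a median log2 fold change of 0.0891. Eng, the endothelial co-receptor endoglin, was at 16.6 and 203 CPM in irradiated 1 and 2, against 11.5 and 11.3 CPM in unirradiated 1 and 2 (log2 fold change 3.26, SE 1.14, adjusted p = 0.51, edgeR). In irradiated 2 the endothelial, fibroblast and macrophage marker sums were also highest, at 897, 6169 and 1048 CPM. Which cells the Eng reads came from was not tested. Rgma, which encodes a membrane-anchored BMP co-receptor, had 48.9 and 44.8 CPM, against 53.0 and 51.8 CPM (log2 fold change -0.16, adjusted p = 0.73).

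All 6 tested genes among the other Smads and the Smurf ligases lay above in both irradiated libraries, where 20.3% of all tested genes did. With DESeq2 or upper-quartile scaling it was 5 of 6, as Smurf2 overlapped. Their median log2 fold change was 0.23, and none passed the edgeR test. Smad5, a receptor-activated Smad of the BMP branch, was at 64.3 and 56.8 CPM in irradiated 1 and 2, against 48.3 and 49.7 CPM in unirradiated 1 and 2 (log2 fold change 0.31, SE 0.11, adjusted p = 0.519, edgeR). Smurf1, a ubiquitin ligase that marks BMP Smads for degradation, was at 102 and 93.2 CPM, against 78.7 and 79.5 CPM (log2 fold change 0.30, SE 0.103, adjusted p = 0.503). Relative to the unirradiated mean, the median of the 6 was 0.27 (log2) for irradiated 1 and 0.20 for irradiated 2, and single genes differed more, such as Smad7 with 0.47 for irradiated 1 and 0.20 for irradiated 2.

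Of the secreted antagonists 9 of 13 passed the filter, with 2 above, 1 below and a median log2 fold change of 0.39. Nbl1, a DAN family antagonist, was at 13.5 and 42.6 CPM in irradiated 1 and 2, against 6.88 and 7.37 CPM in unirradiated 1 and 2 (log2 fold change 1.97, SE 0.56, adjusted p = 0.491, edgeR). Chrdl2, a chordin-like antagonist, was at 21.1 and 14.9 CPM, against 26.9 and 23.8 CPM (log2 fold change -0.49, SE 0.22, adjusted p = 0.579). Relative to the unirradiated mean, the antagonists had a median of -0.0947 (log2) for irradiated 1 and 0.78 for irradiated 2.

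Of the other responsive genes 4 of 5 passed the filter, with 1 above, 0 below and a median log2 fold change of 0.51. By library, the median relative to the unirradiated mean was 0.28 (log2) for irradiated 1 and 0.87 for irradiated 2. Msx2, a homeobox target of BMP signaling, was at 6.56 and 8.42 CPM in irradiated 1 and 2, against 5.25 and 5.31 CPM in unirradiated 1 and 2 (adjusted p = 0.657, edgeR). Atoh8 was at 0.504 and 3.73 CPM, against 0.529 and 0.295 CPM (adjusted p = 0.589). The E protein genes Tcf3, Tcf4 and Tcf12, whose products Id proteins bind, all overlapped between the groups (median log2 fold change 0.14). Tcf4 was at 60.1 and 93.8 CPM, against 60.8 and 61.7 CPM (adjusted p = 0.74), and Tcf3 at 131 and 117 CPM, against 106 and 119 CPM (adjusted p = 0.807).

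**Figure D4:**
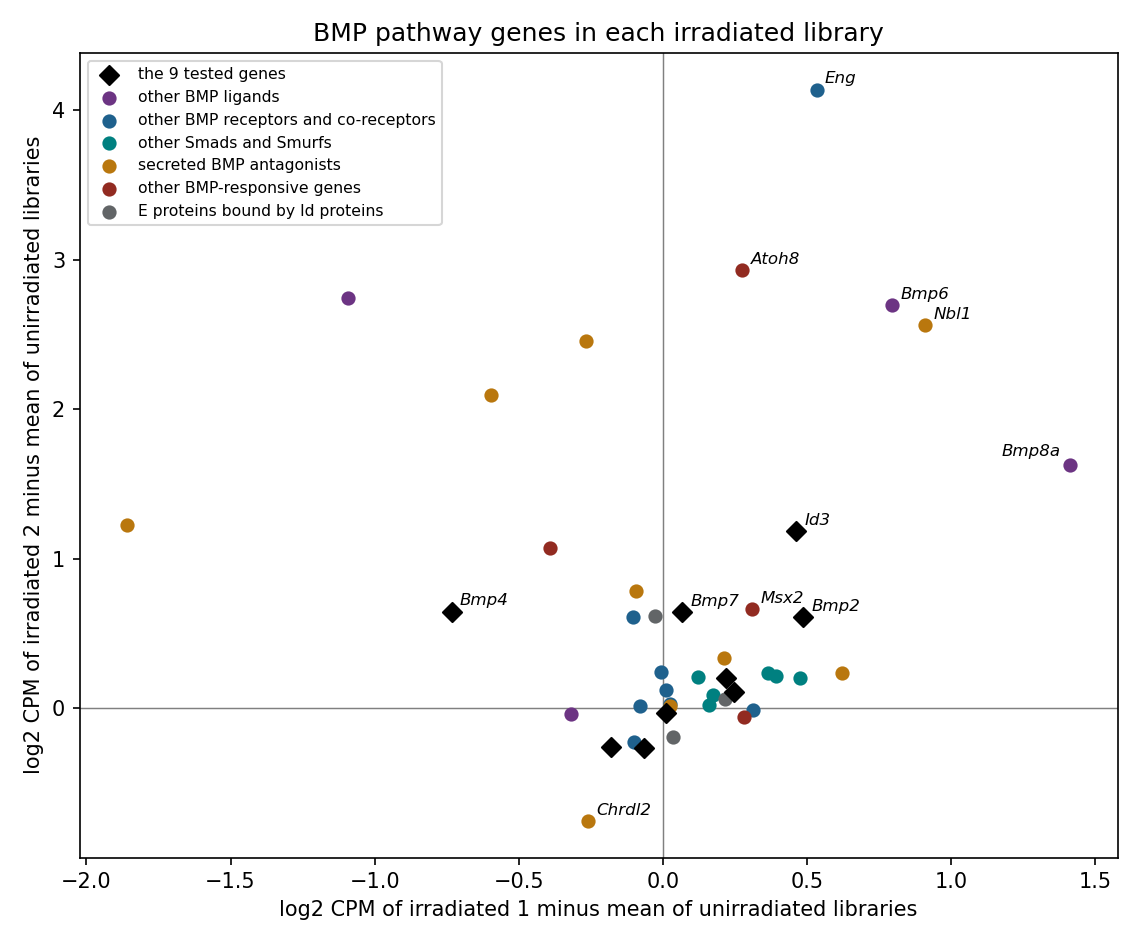
Log2 CPM of irradiated 1 (x axis) and irradiated 2 (y axis), each minus the mean of the unirradiated libraries, for the 9 tested genes of the set (diamonds) and 34 further pathway genes colored by role. Eng, Atoh8, Bmp6 and Nbl1 lie high on the irradiated 2 axis, while the Smad and Smurf genes have medians of 0.27 and 0.20.

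Positions are those of the deposited table in mm10, and 9 of the 10 genes have the same chromosome, start and end in GENCODE M21, Bambi being the exception. Bmp2 (ENSMUSG00000027358, 133552159 to 133562885), Id1 (ENSMUSG00000042745, 152736251 to 152737410) and Bmp7 (ENSMUSG00000008999, 172868012 to 172940321) all lie on chromosome 2. Bmpr1a (ENSMUSG00000021796, 34410734 to 34503341) and Bmp4 (ENSMUSG00000021835, 46383520 to 46390669) lie on chromosome 14. Id3 (ENSMUSG00000007872) lies on chromosome 4 from 136143497 to 136145755, and Id2 (ENSMUSG00000020644) on chromosome 12 from 25093799 to 25097140. Smad6 (ENSMUSG00000036867) lies on chromosome 9 from 63953076 to 64022059, Bmpr1b (ENSMUSG00000052430) on chromosome 3 from 141837136 to 142169425, and Bambi (ENSMUSG00000024232) on chromosome 18. Bmp4 exons share 3.96% of their bases with the opposite-strand gene Gm15217, which had 0 counts.

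The 250 bases before the RefSeq start (GRCm38.p6) of Bmp4, Bmpr1a, Bmpr1b, Smad6, Id2 and Id3 were searched on both strands for GGCGCC, the core of the GC-rich element that Smad1 and Smad5 bind in BMP targets, and for CAGAC, a Smad4 motif. GGCGCC reads the same on both strands, and the motifs do not overlap where they were found. Of all 32851 promoter windows of this length 9.59% hold GGCGCC and 42.2% hold CAGAC. Among the Id genes, the window of Id2 held GGCGCC once and that of Id3 held CAGAC in each orientation. These matches are shown because they are the ones found before Id genes. The motif is in capitals.

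Id2 at chr12:25096308-25096333, minus strand: aggccccctgGGCGCCcagcgcacac
Id3 at chr4:136143645-136143669, plus strand: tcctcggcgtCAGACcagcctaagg
Id3 at chr4:136143744-136143768, plus strand: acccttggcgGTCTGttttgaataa

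The Bmpr1a window also held GGCGCC, the 3 windows of Bmpr1b held CAGAC in 2, and the Smad6 and Bmp4 windows held neither motif. The Id3 window and part of the Id2 window, the Bmpr1a window and a window of Bmpr1b lie in exons of GENCODE M21, so the starts of the annotations differ. A match describes these letters and does not show that a factor binds there.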

How the data were processed

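Poly(A) RNA of 4 libraries was measured, 2 irradiated and 2 unirradiated, grouped and numbered by the sample titles. The table the authors deposited holds raw read counts by gene and a gene length in bases. The submitters' processing notes list the mm10 build with STAR 2.5, HTSeq 0.6.1 and DESeq2. No annotation release or counting option is given there. Here edgeR 4.0.16 (R 4.3.3) was run on these counts with filterByExpr (minimum count 10, minimum total 15), TMM scaling and its two-sided quasi-likelihood test. Adjusted p-values are Benjamini-Hochberg values across every tested gene, called under 0.05. Log2 CPM used a prior count of 2. SEs were derived from the quasi-likelihood test, as the absolute log2 fold change divided by the square root of its F statistic. The 95% intervals are the log2 fold change plus or minus this SE times a quantile of the t distribution with the degrees of freedom of the fit. With 2 against 2 libraries an exact permutation test cannot go below 0.333, so single genes rest on the fit over all genes. The steps were tested on simulated counts with the same spread in both groups. The irradiated and unirradiated pairs here differed in spread, and the simulation does not cover that case.

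The 10 genes and all lists were chosen with earlier results of these data known, so no count over them is independent evidence. The 10 genes are always named; of each role in the wider list the 2 with the smallest p are named where none passed, and of the marker lists the 2 most abundant. Alternative settings covered scaling (upper-quartile, DESeq2 size factors, library size alone), filtering (none, or CPM above 1 in 2 libraries) and the test (DESeq2 1.42.0, or voom in limma 3.58.1). A block for replicate number and the omission of each library in turn were also tried.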

Additional observations from a re-analysis of the deposited data

How the results depend on the processing

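Over 12 alternatives and 9 tested genes, 97 of 108 log2 fold changes kept their sign and their side of the threshold, 7 passed it and 4 turned in sign. Id3 stayed positive in all 12, from 0.45 to 1.17, with adjusted p from 6.4e-29 to 0.9998. The turned values were -0.0399 for Bmp4 with the replicate number as a block, -0.0702 with limma-voom and -0.78 without irradiated 2 (0.64 without irradiated 1), and 0.0534 for Bambi without unirradiated 2 (-0.0995 without unirradiated 1); the cause was not tested. Over all genes 1443 were called with no filter, 2 with the replicate number as a block and 500 by DESeq2, and from 0 (without either unirradiated library) to 4377 with 1 library left out (4067 without irradiated 1, 4377 without irradiated 2). Among the 9 genes 1 was called with no filter and by DESeq2 (Id3 in each), and from 0 to 4 with 1 library left out (4 without irradiated 1, 1 without irradiated 2); with the replicate number as a block 0 were called. In the wider list 4 were called with no filter, 1 by DESeq2, and from 0 to 16 with 1 library left out (16 without irradiated 1, 7 without irradiated 2). Id3 had an adjusted p of 8.78e-07 with no filter and 0.402 with the block. Across genes, the difference between replicates 1 and 2 in the irradiated group had a correlation of -0.0992 with that in the unirradiated group. The biological coefficient of variation was 39.4% in the irradiated and 5.93% in the unirradiated pair. A small deviation shared by same-numbered libraries could be hidden, so this correlation cannot decide whether they were paired. Bmpr1b, with 4 to 12 reads a library, did not pass the filter of the main fit. With no filter its log2 fold change was 0.93, with an interval of the fit from -1.61 to 3.47. It was not called there (unadjusted p = 0.473, adjusted p = 0.901, edgeR). Its log2 fold change was 1.38 without irradiated 1, 0.65 without unirradiated 1 and 1.25 without unirradiated 2.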
